A study of Mus musculus with 24 samples.

Results

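The transcriptome of tumor-associated macrophages was described here as it stood in tumors whose cancer cells kept Apc, using the 12 APC-WT libraries of the 24 in the series. The cells were live CD45+ CD11b+ F4/80+ cells sorted from orthotopic tumors of MC38, a colon carcinoma line of C57BL/6 origin, grown in C57BL/6J mice. Of the 12 libraries, 6 came from APC-WT tumor 1 and 6 from APC-WT tumor 2, and the other 12 came from 2 APC-KO tumors, whose cancer cells lack this gene, a brake on Wnt signalling. The labels give no age, sex, treatment or time for the mice and no clone for the edited line, and all groups share the host strain, the parent line, the digestion and the sort. The 6 libraries of a tumor are described as replicates of a sample, which does not tell whether they came from separate mice or sorts, and any difference between the tumors is 1 tumor against 1 tumor. In bulk RNA, fewer cells of a type and less RNA per cell cannot be told apart.

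Tumor-associated macrophages are phagocytes that arise mostly from blood monocytes recruited by chemokines and kept alive by colony-stimulating factor 1. They engulf dying cells, digest the cargo in lysosomes, present peptides on MHC molecules, and release cytokines, growth factors and proteases that act on T cells, vessels and matrix. In colon tumors they are known both for inflammatory output such as interleukin-1 and for programmes that restrain T cells, among them arginine and tryptophan breakdown and checkpoint ligands.

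Total counts per library ran from 74972634 to 93568353 in tumor 1 and from 28018638 to 46837543 in tumor 2. Olfactory and vomeronasal receptor genes, which macrophages are not known to transcribe, served as the measure of background and held 0.0310 ± 0.0014% (SD, n = 6) of counts in tumor 1 and 0.211 ± 0.009% in tumor 2, against 0.711% to 0.768% over the APC-KO libraries. Loci that resemble satellite repeats held 1.32 ± 0.08% and 7.05 ± 0.28% of counts in the APC-WT tumors and at least 37.1% in every APC-KO library. No pair of libraries within a tumor agreed within sampling noise: the chi-square per degree of freedom was at least 7.73 in tumor 1 and 6.97 in tumor 2. Log2 levels correlated at 0.974 to 0.993 between libraries of tumor 1 and at 0.964 to 0.985 between those of tumor 2, across genes above background.

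Genes were compared on a length-scaled level, which is the count per kilobase of exon scaled to the same total in every library over all genes. A gene was called above background where its mean level in both tumors was at least 1 and above the 99th percentile of 1466 receptor genes, which lay at 0.599 in tumor 1 and 2.70 in tumor 2. On this rule 11024 of 21963 protein-coding genes (50.2%) were above background, 9869 (44.9%) were not above it in either tumor and 1070 were split, passing in 1 tumor. Including other gene types, 13760 of 55216 genes were above background, among them 1359 processed pseudogenes. The coding genes above background had a median level of 16.5, with 7106 at 10 or more, 1222 at 100 or more, 107 at 1000 or more and 7 at 10000 or more. The level of a gene that fails the rule is not shown to be 0, since the background would hide low transcription, more so in tumor 2. Some genes differed widely between libraries of a tumor: of the 11024 coding genes above background, the highest library was over 2 times the lowest for 862 in tumor 1 and 887 in tumor 2, and for 649 in both. Among those 649 the 3 lowest libraries were replicates 3, 5 and 6 of tumor 1 for 484 genes and replicates 4, 5 and 6 of tumor 2 for 512. The cause was not tested. Values below are mean ± SD of 6 libraries, tumor 1 first, and levels are not background-subtracted.

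**Figure D1:**
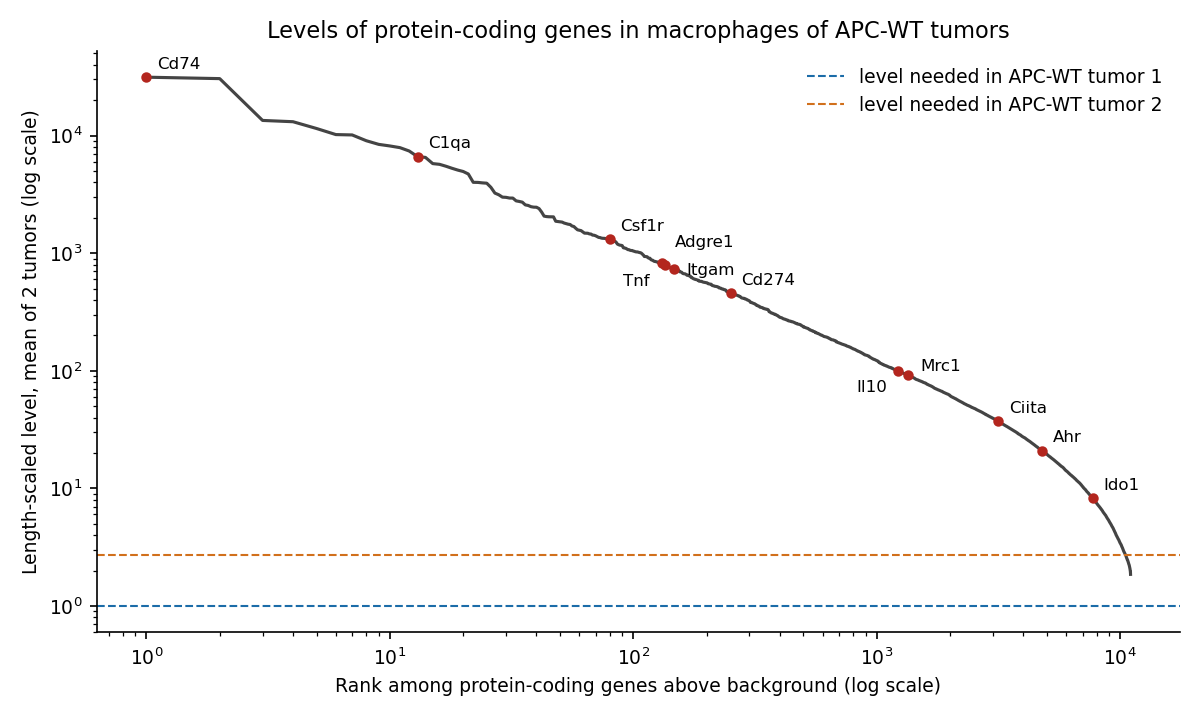
Length-scaled level (y axis, log scale, mean of the 2 tumors) against rank (x axis, log scale) of the 11024 protein-coding genes above background, with red points on 12 genes and dashed lines at the level needed in each tumor. Levels fall from Cd74 at 31335 to 1.86, between the dashed lines of the tumors, and the checkpoint ligand gene Cd274 ranks 252 while Ido1 ranks 7707.

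Every marker used for the sort or to define the cells was far above background. Adgre1, which encodes F4/80, ranged from 832 to 921 (median 875) in tumor 1 and from 722 to 797 (median 755) in tumor 2. Itgam, which encodes CD11b, ranged from 672 to 738 (median 714) in tumor 1 and from 691 to 829.5 (median 752) in tumor 2. The tumors overlapped for Itgam and not for Adgre1. Of Itgam's 50-base stretches 72.4% also occur in transcripts of other annotated genes, so its counts are uncertain. Csf1r, the receptor for colony-stimulating factor 1, ranged from 1446 to 1551 (median 1516) in tumor 1 and from 1068 to 1205 (median 1107) in tumor 2, with every library of tumor 1 above every library of tumor 2. Ptprc, which encodes CD45, ranged from 132 to 144 (median 139) in tumor 1 and from 129 to 141 (median 134) in tumor 2, and its tumors overlapped. The level of Ptprc depends on the length used and was 350 and 343 with the longest transcript. All 16 genes of the list of sort and macrophage markers were above background, with a median level of 1326 against 16.5 over all coding genes above background. Cd68, a lysosomal glycoprotein gene, stood at 1345 ± 27.6 and 1379 ± 23.4.

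The 100 highest genes held 31.3 ± 0.5% of counts in tumor 1 and 29.2 ± 0.4% in tumor 2. Coordinates of genes are those of the GENCODE M21 annotation of GRCm38. Cd74, the invariant chain that guides MHC class II molecules to the endosome, had the highest mean level of the tumors among coding genes and ranged from 27803 to 29415 (median 28958) in tumor 1 and from 32974 to 34689 (median 33936) in tumor 2. Apoe (ENSMUSG00000002985, chr7:19696109-19699188), the apolipoprotein that carries lipid out of macrophages, was next by this mean and ranged from 36403 to 40401 (median 38864) in tumor 1 and from 21804 to 22658 (median 22023) in tumor 2. The tumors did not overlap for either gene. Apoe was higher in tumor 1, whereas Cd74 had the higher level in tumor 2 but a log2 change of -0.66 (adjusted p = 1.29e-15) in the edgeR fit on all genes described below. The order of this pair depends on the measure, since Apoe was the higher in tumor 1, ranked 1 by CPM, and stood at 46701 and 26714 with the longest transcript, against 27172 and 32084 for Cd74. Among genes of any type a short annotated miRNA locus of 57 exonic bases, Gm23935 (chr16:11144125-11144181), stood higher still, at 58996 ± 3890.1 and 47446 ± 2354, and ranked 102 by CPM; it was singled out after its values were seen. The iron store followed, with the ferritin light chain gene Ftl1 at 12629.9 ± 195 and 14248 ± 202 and the heavy chain gene Fth1 at 6708 ± 161 and 9597 ± 171. Ftl1 shares 90.6% of its 50-base stretches with other genes, so its level is uncertain. Lyz2, the lysozyme gene of myeloid cells, ranged from 13086 to 14230.4 (median 13699.6) in tumor 1 and from 12092 to 13025 (median 12622) in tumor 2, and its neighbour Lyz1, the lysozyme gene best known from Paneth cells of the gut, ranged from 61.1 to 114 (median 106) in tumor 1 and from 71.9 to 106 (median 94.2) in tumor 2. The tumors overlapped for Lyz1 and not for Lyz2, which was higher in tumor 1. Lyz2 shares 15.4% of its 50-base stretches with other genes. Whether reads of Lyz2 entered the much lower Lyz1 count was not tested, so the Lyz1 level is uncertain. Cd14, the co-receptor for bacterial lipopolysaccharide, stood at 12409.8 ± 326 and 10534 ± 169.8, and Ctss, the protease that trims the invariant chain, at 11482 ± 337 and 8893 ± 174.

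The 30 highest coding genes fell into a few functions. The classical complement genes C1qa, C1qb and C1qc, whose products form the recognition molecule that binds antibody and dying cells, stood at 7911 ± 163 and 5305 ± 113, 11524 ± 289 and 8707 ± 132 and 5208 ± 121 and 4211 ± 36.7. MHC genes were B2m at 9238 ± 404 and 7582 ± 182, H2-D1 at 7542 ± 124 and 7235 ± 111, H2-Ab1 at 6941 ± 148 and 8835 ± 143 and H2-Eb1 at 3693 ± 103 and 4294 ± 106. Lysosomal genes were Psap, the saposin precursor, at 7196 ± 103 and 3765 ± 96.8, Lgmn, an asparaginyl protease, at 3961 ± 100.4 and 3294 ± 92.8, and Ctsc at 2999 ± 53.9 and 2988 ± 63.7. A further group is known for fast induction by stress and cytokine signals. It held Junb at 9621 ± 457 and 8445 ± 97.5, Fos at 5422 ± 112 and 5108 ± 147, the phosphatase gene Dusp1 at 5863 ± 217 and 5517 ± 164, the RNA-decay gene Zfp36 at 5499 ± 124 and 4394 ± 125, the NF-kB inhibitor gene Nfkbia at 4049 ± 121 and 3954 ± 41.8 and Socs3 at 3683 ± 128 and 4182 ± 112. Inflammatory products were Il1b at 6404 ± 363 and 6631 ± 353 and the chemokine gene Ccl4 at 3513 ± 168 and 2759 ± 70.9. Others were Tmsb4x, Actb, Thbs1 and Cd83, between 2981 and 5085 as the mean of the tumors. By CPM, the share of counts with no division by length, which favours long genes, 18 of these 30 were also in the top 20, joined by Ctsb at 6328 ± 132 and 4511 ± 101 and by Lars2 at 5157 ± 313 and 4110 ± 233.

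**Figure D2:**
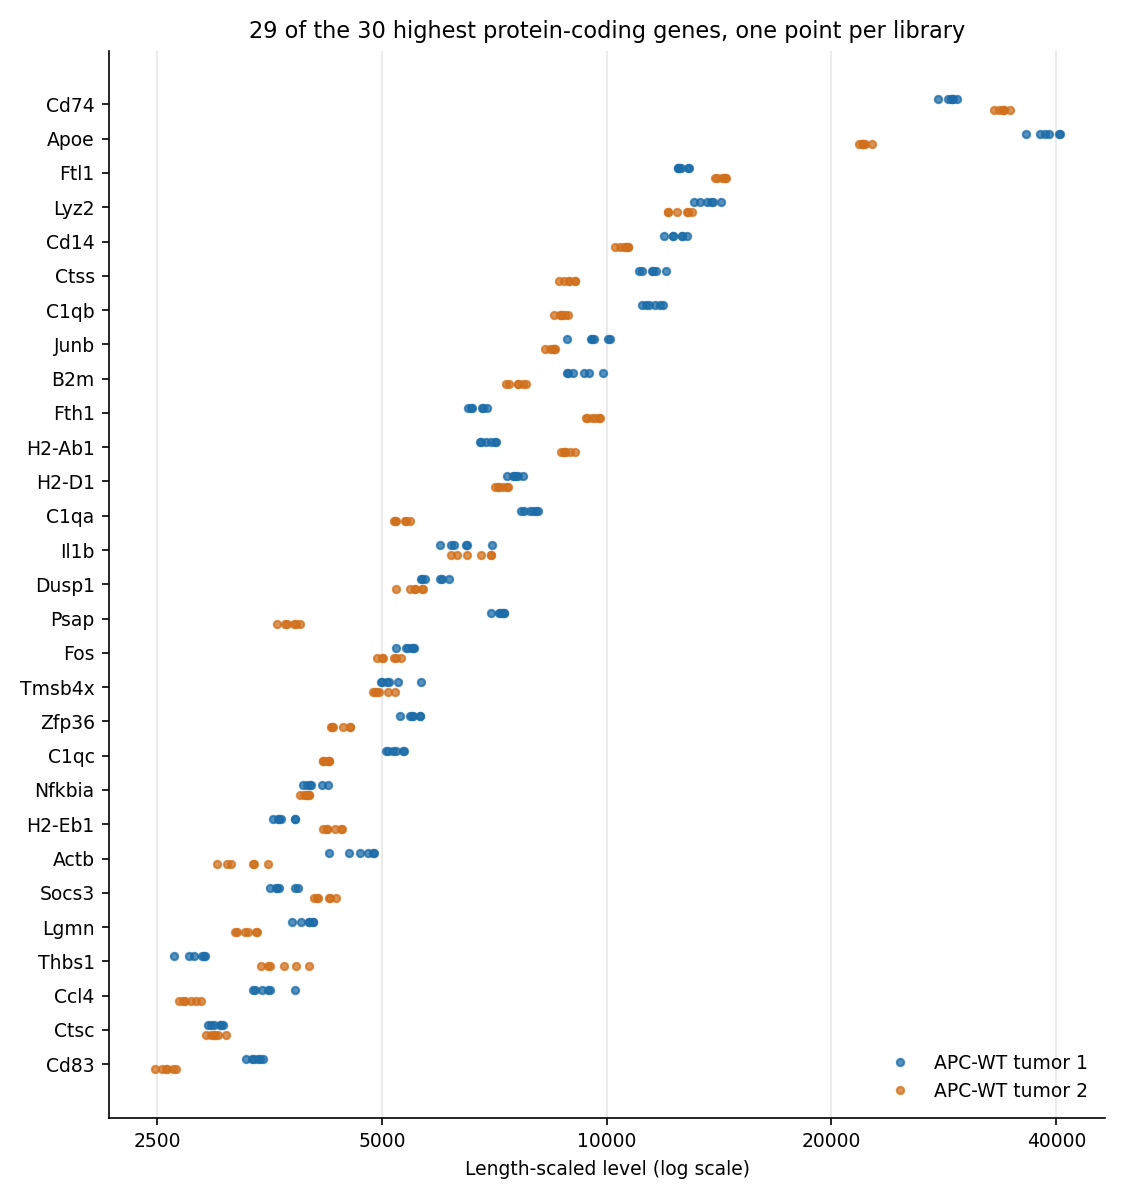
Length-scaled level (x axis, log scale) of 29 of the 30 highest protein-coding genes, ordered by the mean of the tumors, with 1 point per library in blue for APC-WT tumor 1 and orange for APC-WT tumor 2. Points of a tumor lie close together, and the tumors overlap for 7 of the genes, among them Il1b, Fos and Nfkbia.

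Within this set the tumors overlapped for 7 genes, 15 were higher in every library of tumor 1 and 8 in every library of tumor 2. Among all coding genes above background 39.0% did not overlap, 15.7% being higher in tumor 1 and 23.4% in tumor 2. In the edgeR fit on all genes described below the 15 kept their sign and the 8 all turned, so no direction is given for the 8. That fit had a median log2 change of -0.78 over genes above background, so the kept sign of the 15 is no check. Over list members above background the SD was a median of 4.58% of the mean in tumor 1 and 5.51% in tumor 2, with a 95th percentile of 20.7% and 22.3%. Of these 759 members 25 in tumor 1 and 31 in tumor 2 had a highest library over 2 times the lowest, 18 of them in both. Examples singled out for their spread are the transcription factor genes Cebpb, with levels from 85.3 to 2553 (median 179.8) in tumor 1 and from 118 to 3079 (median 392) in tumor 2, and Klf2, with levels from 40.4 to 349 (median 121) in tumor 1 and from 76.2 to 626 (median 347) in tumor 2.

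Promoter sequence was read from RefSeq starts on GRCm38.p6 for genes of 3 abundant groups, to show the letters that stand before them. Sequences are the 120 bases before the first listed start, 5′ to 3′ on the gene's strand. Capitals mark matches, on either strand, to GGNNTTTCC, a form of the NF-kB site, to TGACGT, the cyclic AMP response core, to GAGGAA, a PU.1 core, to CCAAT, the NF-Y box, to TATAAA, the TATA box, and to CAACNGATG, a core of the MHC class II X box. The letters were chosen after matches in these promoters had been seen, and not every motif is marked in every gene. The first 4 belong to the NF-kB inhibitor gene Nfkbia and the neutrophil-attracting chemokine genes Cxcl1, Cxcl2 and Cxcl3, the fifth to Fos, the next 3 to MHC class II genes and the last to C1qb.
Nfkbia (chr12:55492648-55492767, minus strand): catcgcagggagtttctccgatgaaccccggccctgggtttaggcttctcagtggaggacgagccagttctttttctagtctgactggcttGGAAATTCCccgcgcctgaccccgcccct
Cxcl1 (chr5:90891125-90891244, plus strand): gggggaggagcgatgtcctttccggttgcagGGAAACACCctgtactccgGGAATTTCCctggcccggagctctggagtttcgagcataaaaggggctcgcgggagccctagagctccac
Cxcl2 (chr5:90903779-90903898, plus strand): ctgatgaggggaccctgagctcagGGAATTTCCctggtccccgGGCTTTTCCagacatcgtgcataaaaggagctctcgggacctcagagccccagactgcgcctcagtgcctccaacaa
Cxcl3 (chr5:90785981-90786100, plus strand): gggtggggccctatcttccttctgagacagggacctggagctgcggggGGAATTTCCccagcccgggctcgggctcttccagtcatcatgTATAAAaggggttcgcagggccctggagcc
Fos (chr12:85473770-85473889, plus strand): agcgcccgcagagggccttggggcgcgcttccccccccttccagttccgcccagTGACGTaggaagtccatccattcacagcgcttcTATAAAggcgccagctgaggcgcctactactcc
H2-Eb1 (chr17:34305747-34305866, plus strand): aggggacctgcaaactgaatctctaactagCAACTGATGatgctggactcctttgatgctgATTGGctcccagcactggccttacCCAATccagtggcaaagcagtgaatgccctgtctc
H2-Aa (chr17:34287824-34287943, minus strand): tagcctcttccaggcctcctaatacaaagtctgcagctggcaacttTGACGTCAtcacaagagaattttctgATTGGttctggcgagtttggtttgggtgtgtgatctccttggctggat
H2-DMb1 (chr17:34153071-34153190, plus strand): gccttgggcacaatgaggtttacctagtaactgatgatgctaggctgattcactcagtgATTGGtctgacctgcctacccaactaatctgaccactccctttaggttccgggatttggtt
C1qb (chr4:136886201-136886320, minus strand): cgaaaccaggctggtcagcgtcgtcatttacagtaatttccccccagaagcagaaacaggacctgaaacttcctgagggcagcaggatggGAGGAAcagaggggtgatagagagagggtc

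Of the 30 highest coding genes 21 had an entry among the promoters. GGNNTTTCC stood within 250 bases before the start of Nfkbia and B2m among them, 9.52% against 4.84% of all 27025 genes with an entry. In the CXC, CX3C and XC chemokine list it stood in 5 of 9 members above background with an entry, Cxcl1, Cxcl2, Cxcl3, Cxcl9 and Cxcl10, which is 55.6%. CCAAT stood in 6 of 7 MHC class II members above background with an entry, 85.7% against 34.5% of all genes. CAACNGATG was found in 1 of those 7, H2-Eb1, and in H2-Eb2, which was not above background, against 0.3996% of all genes. Only exact matches were counted, so an X box that differs by a letter was missed, and the other promoters are not shown to lack the box. TATAAA stood in 6 of the 21 and GAGGAA also in 6, each 28.6%, against 12.97% and 23.1% of all genes. These matches are descriptions of letters.

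Most receptors that macrophages use to read growth factors, cytokines and microbes were on. Of 327 receptor genes in 15 lists 244 (74.6%) were above background, against 50.2% of all coding genes, and 65 were not above it. Beside Csf1r, the receptor chains for granulocyte-macrophage colony-stimulating factor were on, with Csf2ra at 604 ± 28.7 and 695 ± 22.2 and Csf2rb at 134 ± 4.71 and 159 ± 10.3. Csf3r, the receptor for the granulocyte factor, stood at 162 ± 3.79 and 226 ± 14.6, and this gene is also on the list of neutrophil markers. Flt3, a dendritic cell and progenitor receptor gene, was split. The interleukin-10 receptor gene Il10ra led 25 of 30 interleukin and TGF-beta receptors above background, at 858 ± 22.5 and 562 ± 34.8. The shared cytokine chain gene Il2rg stood at 488 ± 16.3 and 524 ± 17.6 and Il4ra, which binds interleukin-4, at 458 ± 6.22 and 413 ± 13.9. The 3 of that list not above background were Il18r1, Il13ra2 and Il23r, at most 0.306 in tumor 1 and 1.42 in tumor 2. All 4 interferon receptor genes for types known to act on macrophages, Ifngr1, Ifngr2, Ifnar1 and Ifnar2, were on, with Ifngr1 at 325 ± 9.48 and 304 ± 1.32 and Ifnar2 at 158 ± 6.37 and 152 ± 5.90. The lambda receptor gene Ifnlr1 was split. Of 18 TNF receptor genes 14 were on, led by Tnfrsf1b at 535 ± 12.9 and 751 ± 27.9, and Tnfrsf10b, Tnfrsf13c and Tnfrsf25 were not above background.

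Sensors of microbes were nearly all on. All 14 genes of the Toll-like receptor list were above background, although their level spanned from 2.31 to 11472 as the mean of the tumors. After Cd14 the highest were Tlr2, which binds bacterial lipoproteins, at 2012 ± 39.9 and 1391 ± 50.6, and Tlr13, which reads bacterial ribosomal RNA, at 251 ± 9.31 and 180.2 ± 9.55. Among cytosolic sensors 18 of 20 were on, led by the inflammasome gene Nlrp3 at 446 ± 9.20 and 533 ± 10.02 and Tmem173, which encodes STING, at 204 ± 4.00 and 178 ± 9.24. Receptors for antibody were led by the shared signalling chain Fcer1g at 2175 ± 136 and 1917 ± 40.8 and the activating receptor gene Fcgr3 at 1611 ± 34.3 and 1548 ± 21.9, while the IgE receptor genes Fcer1a and Fcer2a were not above background. C-type lectins had 21 of 27 members on. Mrc1, the mannose receptor often used to mark macrophages of an alternative state, ranged from 121 to 137 (median 130.4) in tumor 1 and from 50.8 to 56.5 (median 53.8) in tumor 2, with every library of tumor 1 higher. Clec4n stood at 543 ± 17.1 and 450.1 ± 13.5 and Clec7a, the receptor for fungal beta-glucan, at 259 ± 13.5 and 314 ± 13.2. Of the scavenger receptors 13 of 20 were on, led by Cd68 and Cxcl16 and with Msr1 at 261 ± 8.04 and 289 ± 9.46, whereas Colec12, Megf10, Stab2 and Cd5l were not.

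Receptors for dying cells, matrix, lipids and checkpoints were uneven. Of the efferocytosis list 15 of 21 were on. Axl, a receptor for phosphatidylserine-bound Gas6, stood at 901 ± 20.6 and 705 ± 25.5, while Timd4, Havcr1 and Stab2 were not above background. Integrin genes were led by Itgb2, the beta chain partnered with CD11b, at 774 ± 18.4 and 926 ± 30.8, and 8 of 26 were not above background, Itga2 and Itga2b among them. Chemokine receptors had 13 of 24 on, led by Ccrl2 at 2099.7 ± 68.2 and 1424 ± 44, the fractalkine receptor gene Cx3cr1 at 499 ± 11.2 and 321 ± 14.6 and Ccr1 at 390.5 ± 18.97 and 346 ± 13.3. The other 11, with Ccr3, Ccr4, Ccr6, Ccr8 and Ccr9 the first listed, did not exceed 0.933 in tumor 1 and 2.56 in tumor 2. Receptors for purines, lipids and formyl peptides had 32 of 38 on, led by the complement receptor genes C5ar1 at 810.3 ± 25.6 and 717 ± 18.7 and C3ar1 at 563 ± 18.9 and 468 ± 16.1. Checkpoint genes had 27 of 31 on. Cd274, which encodes PD-L1, ranged from 356 to 395 (median 379) in tumor 1 and from 497 to 564 (median 533) in tumor 2. Every library of tumor 2 was higher for Cd274 on this level. In the edgeR fit on all genes, however, the log2 change of Cd274 was -0.40 (adjusted p = 1.39e-08). Lilr4b stood at 851 ± 42.8 and 1021 ± 47.8, and the inhibitory receptor gene Sirpa at 737 ± 41.7 and 559.9 ± 37.8. Lilrb4a, a separate gene from Lilr4b, ranged from 667 to 782 in tumor 1 and from 828 to 977 in tumor 2. Vtcn1, Vsig4, Cd200 and Btla were not above background. Nuclear receptors had 22 of 40 on, with the induced gene Nr4a1 far ahead at 2337 ± 59.2 and 1731 ± 37.6 and the liver X receptor gene Nr1h2 at 131 ± 4.90 and 157 ± 4.07. Ahr, the aryl hydrocarbon receptor gene that senses tryptophan products, ranged from 11.2 to 22.6 (median 16.9) in tumor 1 and from 16.3 to 33.98 (median 23.6) in tumor 2, and its tumors overlapped. The lowest libraries for Ahr were replicates 3, 5 and 6 of tumor 1 and replicates 4, 5 and 6 of tumor 2. These are the libraries that were lowest for most of the widely varying genes described above.

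Ligand genes were on and off in more equal numbers than receptor genes, a difference that was not tested. Of 168 ligand genes in 7 lists 94 (56.0%) were above background, 65 were not and 9 were split, against 50.2% of all coding genes above background. Interleukin genes had 19 of 34 on. Il1b (ENSMUSG00000027398, chr2:129364570-129371139) ranged from 5982 to 7029 (median 6362) in tumor 1 and from 6183 to 7010.1 (median 6650.0) in tumor 2, well ahead of Il1a at 1449 ± 51.03 and 1361 ± 39.2, of Osm, which encodes oncostatin M, at 1513 ± 41.95 and 1254 ± 42.9, and of the receptor antagonist gene Il1rn at 832 ± 30.9 and 812 ± 23.3. Il10, the suppressive cytokine gene, ranged from 143 to 158 (median 150.4) in tumor 1 and from 44.7 to 53.5 (median 48.3) in tumor 2. Il12b, the shared chain of interleukins 12 and 23, ranged from 107 to 116 (median 110.1) in tumor 1 and from 69.1 to 81.9 (median 75.3) in tumor 2. The libraries of the tumors did not overlap for either of these, both being higher in tumor 1, and overlapped for Il1b. The first 5 listed of the 14 genes not above background were Il3, Il4, Il5, Il9 and Il11, and no member of the 14 exceeded 0.570 in tumor 1 or 2.37 in tumor 2.

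**Figure D3:**
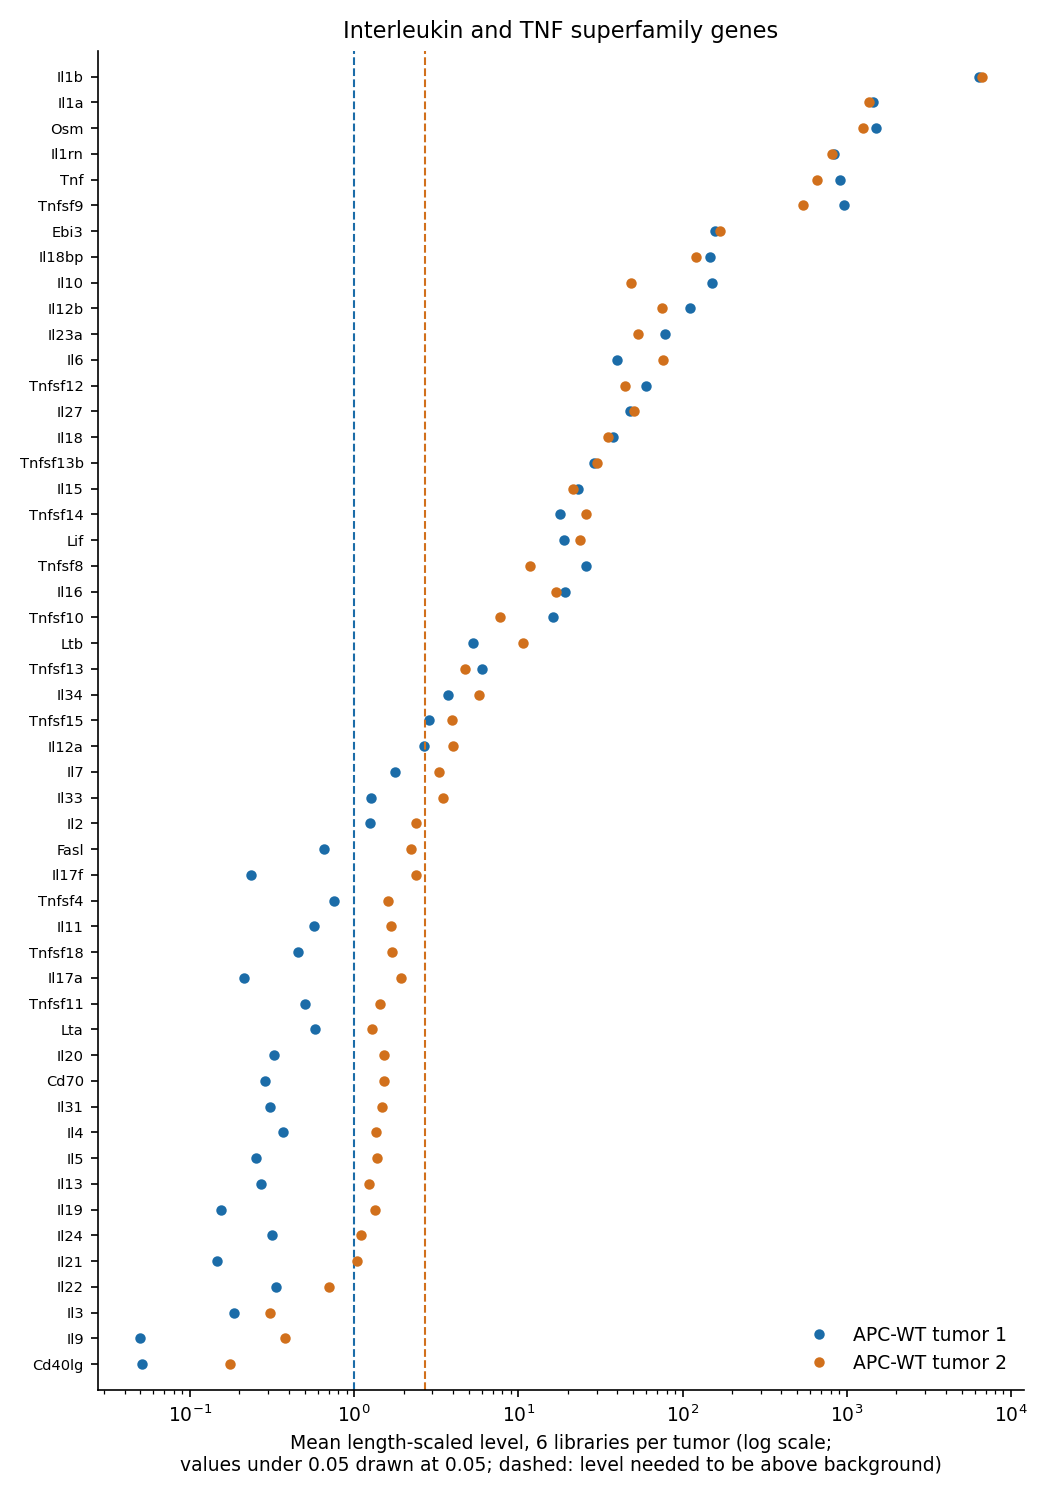
Mean length-scaled level (x axis, log scale) of the 34 interleukin and 17 TNF superfamily genes in APC-WT tumor 1 (blue) and APC-WT tumor 2 (orange), with dashed lines at the level needed in each tumor. Il1b is the highest gene at 6518, and the genes left of both dashed lines have their tumor 2 point at or below 2.37 and their tumor 1 point at or below 0.758.

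Among other cytokine families the pattern was as uneven. Tnf ranged from 869.9 to 960.4 (median 913) in tumor 1 and from 627 to 688 (median 658) in tumor 2, higher in every library of tumor 1, and Tnfsf9, which encodes the 4-1BB ligand, stood at 956 ± 13.6 and 539.7 ± 11.6. In all 10 of 17 TNF superfamily genes were on, and Lta, Tnfsf4, Cd40lg, Fasl and Cd70 were not above background. Of 19 interferon genes 2 were on, Ifng at 2.61 ± 0.367 and 7.31 ± 1.55 and Ifnb1 at 2.47 ± 0.805 and 4.33 ± 1.26, and 16 were not above background. With a minimum level of 5 no interferon gene would pass. CC chemokines had 12 of 17 on. Ccl4 led, then Ccl7 at 2707 ± 79.6 and 2438 ± 56.98, Ccl3 at 1547 ± 39.5 and 2057 ± 33.2 and Ccl2 at 1154 ± 37.3 and 1506 ± 38.5, all genes for attractants of monocytes or T cells, whereas Ccl1, Ccl17, Ccl20 and Ccl28 were not above background. The neutrophil attractant gene Cxcl2 stood at 2682 ± 113 and 2238 ± 109.6 and Cxcl1 at 868 ± 35.9 and 580.3 ± 25.9. The interferon-induced gene Cxcl10 stood at 542 ± 27.7 and 419 ± 21.7, and Cxcl12, Cxcl15 and Xcl1 were not above background. Growth factors had 25 of 40 on. The progranulin gene Grn stood at 2735 ± 99.5 and 2049 ± 88.3 and the angiogenic factor gene Vegfa at 1364 ± 37.1 and 1348 ± 32.9. Tgfb1, a suppressive and matrix-inducing factor gene, ranged from 165 to 184 (median 170.1) in tumor 1 and from 157 to 171 (median 166) in tumor 2, and its tumors overlapped. Tgfb2, Vegfc, Pdgfd, Igf1 and Igf2 were not above background. The Tgfb1 level was 269 and 258 with the longest transcript.

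Antigen presentation genes were nearly all on, and complement genes were uneven. Of 11 MHC class II genes 10 were on, Ciita, their coactivator gene, ranging from 32.3 to 36 (median 33.2) in tumor 1 and from 39.1 to 42.5 (median 40.5) in tumor 2, and H2-Eb2 was not above background. All 20 class I and peptide-loading genes were on, with H2-K1 at 2971 ± 77.2 and 2595 ± 59.4 and Tapbp, the tapasin gene, at 1066 ± 24.9 and 983 ± 32.4. Complement components had 14 of 24 on. After the C1q genes came Cfb, the factor B gene, at 1266 ± 29.6 and 1094 ± 28.6, whose 50-base stretches are 81.4% shared with other genes, and Cfp, the properdin gene, at 962 ± 22.5 and 1094 ± 20.4. The first listed of the 9 genes not above background were Hc, which encodes C5, and C7, C8a, C8b and C9, which take part in the lytic pore, and no member of the 9 exceeded 0.290 in tumor 1 or 1.73 in tumor 2.

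Enzyme genes showed the lysosome as the most complete list. All 30 lysosomal hydrolase genes were on, from 7.56 to 13104 as the mean of the tumors, with the hexosaminidase gene Hexa at 843 ± 17.3 and 667 ± 15.04. Cathepsins and cystatins had 16 of 19 on, with Ctsb at 3105 ± 63.1 and 2322 ± 46.1 and Ctsz at 2747 ± 62.1 and 2339.9 ± 65.2, and Ctsg and Cst6 were not above background. In arginine metabolism 13 of 18 were on. Arg1 (ENSMUSG00000019987, chr10:24915221-24927484), which hydrolyses arginine to urea and ornithine, ranged from 1148 to 1247 (median 1191) in tumor 1 and from 1301 to 1381 (median 1332) in tumor 2, with no overlap. Arg1 was higher in tumor 2 on this level, but its log2 change in the edgeR fit on all genes was -0.73 (adjusted p = 4.56e-13). Nos2 (ENSMUSG00000020826, chr11:78920787-78960254), which turns arginine into nitric oxide, ranged from 84.4 to 90.7 (median 87.03) in tumor 1 and from 469 to 562 (median 511) in tumor 2, and every library of tumor 2 lay above every library of tumor 1. Nos1, Nos3, Otc, Slc7a3 and Agmat were not above background.

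Tryptophan genes had 9 of 20 (45.0%) on and 9 not, near the 50.2% of all coding genes above background. Those on had a median level of 13.2, against 16.5 over all coding genes above background. Tdo2 (ENSMUSG00000028011, chr3:81957090-81976202), the tryptophan dioxygenase named in the study's title, was not above background and ranged from 0.0906 to 0.348 (median 0.166) in tumor 1 and from 1.31 to 2.06 (median 1.73) in tumor 2, where the receptor genes had medians of 0.142 and 1.18. Ido1, the inducible dioxygenase gene of immune cells, ranged from 4.32 to 6.25 (median 5.73) in tumor 1 and from 10.4 to 11.7 (median 10.7) in tumor 2. Every library of tumor 2 lay above every library of tumor 1 for Ido1, a difference that passed 1 of the 2 fits described below: its log2 change was 0.87 (adjusted p = 2.17e-06) by edgeR among genes above background and 0.06 (adjusted p = 0.557) among all genes. The highest gene of the list was Slc3a2, the heavy chain of large neutral amino acid carriers, at 641 ± 16.1 and 587 ± 17.3. Ido2, Acmsd, Qprt and Aadat were not above background. Prostaglandin and leukotriene genes had 15 of 20 on, led by the inducible cyclooxygenase gene Ptgs2 at 1721 ± 60.8 and 1973 ± 72.9.

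Of the remaining enzymes, 18 of 25 oxidant and antioxidant genes were on. Cyba, a subunit of the phagocyte oxidase, stood at 1517 ± 27.9 and 1439 ± 31.1 and Gpx1, a peroxidase gene, at 1569.7 ± 59.1 and 1278 ± 22.3, while Nox1, Nox3, Nox4, Duox1 and Duox2 were not above background. Glycolytic genes had 25 of 31 on, with Pkm at 1469 ± 29.5 and 2035 ± 61.4, Aldoa at 921 ± 16.8 and 1411 ± 31.7 and Ldha at 857 ± 25.2 and 1008 ± 33.7. The share of 50-base stretches also found in other genes was 34.4% for Pkm, 36.6% for Ctsd and 42.01% for Il2rg, whose levels are therefore uncertain. Gapdhs, Pgk2 and Ldhc, forms of the testis, were not above background. Matrix proteases had 22 of 30 on, led by the urokinase receptor gene Plaur at 673 ± 13.9 and 821 ± 14.6 and Adam8 at 392 ± 14.2 and 702 ± 29.5, with Mmp7 and Mmp16 among the 6 not above background. Iron genes beyond ferritin had Slc11a1, the phagosomal metal transporter, at 471 ± 14.7 and 598 ± 14.8 and the heme oxygenase gene Hmox1 at 333 ± 15.5 and 285 ± 13.6, and Hamp, the hepcidin gene, was not above background. Lipid genes had 24 of 27 on, with the cholesterol transfer gene Npc2 at 289 ± 10.4 and 263 ± 10.05 and the 25-hydroxylase gene Ch25h at 192 ± 6.04 and 174 ± 5.44, and Vldlr and Mgll were not above background.

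**Figure D4:**
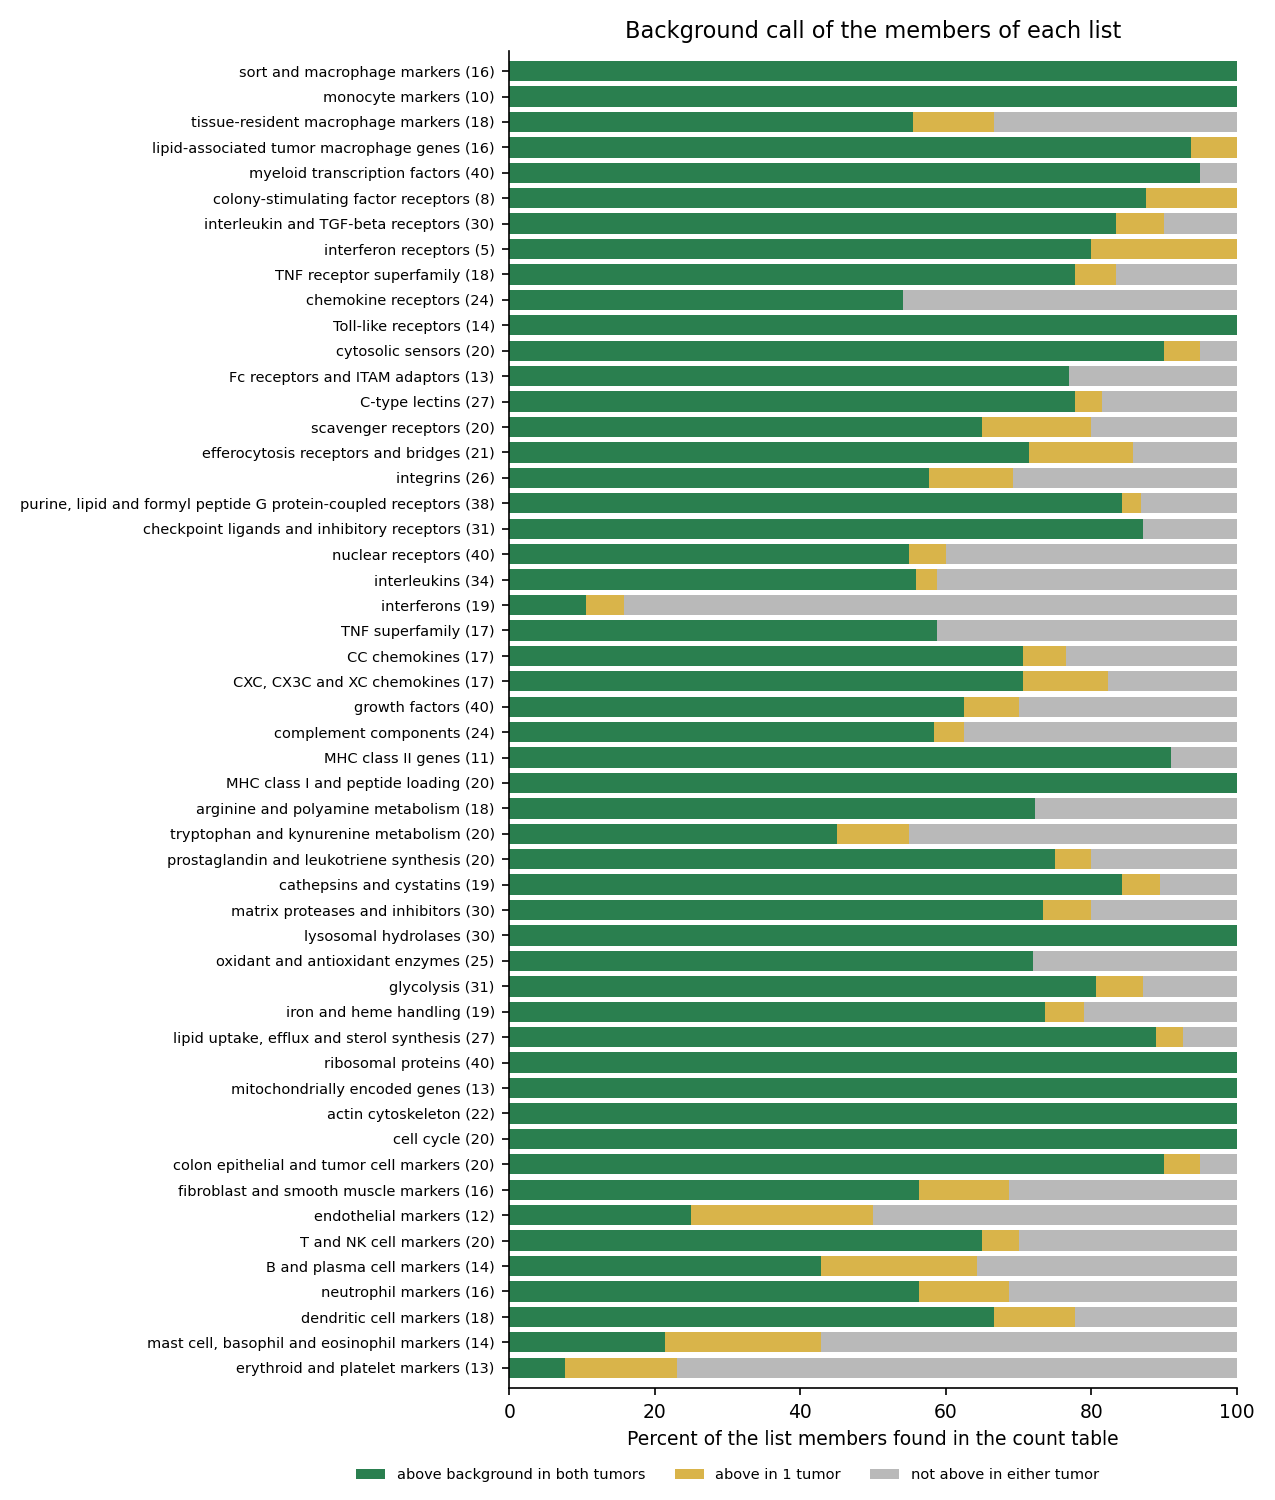
Percent (x axis) of the members of 52 lists that were above background in both tumors (green), in 1 tumor (yellow) or in neither (grey), with the number of members in brackets. Lysosomal hydrolases, Toll-like receptors and class I genes are fully green, and interferons are mostly grey, as are the lists of erythroid and of mast cell markers.

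The transcription factors and state markers were as follows. Of 40 myeloid transcription factors 38 were on and 2, Epas1 and Gata6, were not above background. Their levels ran from 1.99 to 9033 as the mean of the tumors, and among the highest were Junb, Fos, Egr1 at 1765 ± 33.3 and 1188 ± 24.7 and Atf3 at 1068 ± 30.9 and 1250.5 ± 44.9. All 10 monocyte markers were on, led by Nr4a1 and Fn1 at 233 ± 7.59 and 243 ± 23.1 and with Plac8 at 76.9 ± 2.34 and 148 ± 7.51. Of 18 tissue-resident macrophage markers 10 were on, with Tmem119, a microglial marker gene, at 699 ± 16.5 and 339 ± 13.03 and Siglec1 at 154 ± 7.62 and 73.6 ± 6.75. Timd4, Lyve1, Vsig4, Clec4f and Gata6, markers of resident cells of several organs, were not above background. Genes of lipid-associated macrophages had 15 of 16 on, with Spp1, the osteopontin gene, at 1055 ± 22.2 and 1084 ± 16.8 and Ctsd at 2911 ± 107 and 2055 ± 69.5. The ribosomal, mitochondrially encoded, actin and cell cycle lists were on in full, 95 of 95. The 40 ribosomal protein genes ran from 11.1 to 497 with a median of 82.2, and 32 of them share over 20% of their 50-base stretches with other genes. The 22 actin cytoskeleton genes had a median of 586, with the profilin gene Pfn1 at 1553 ± 21.2 and 1579 ± 29.8. The 13 mitochondrially encoded genes were led by mt-Co1 at 514 ± 23.96 and 677 ± 30.7. Of these 13, 7 share over 20% of their 50-base stretches with other genes, so their levels are uncertain. All 20 cell cycle genes were on, between 8.10 and 105 as the mean of the tumors.

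Of 143 markers of other cells 74 (51.7%) were above background, close to the 50.2% of all coding genes, at levels that were uneven between tumors, and their part in the levels above was not tested. Epithelial and tumor cell markers had 18 of 20 on, and their summed level was 404 to 433 in tumor 1 and 2194 to 2249 in tumor 2. Car1, a carbonic anhydrase of colon epithelium, ranged from 119 to 136 (median 131) in tumor 1 and from 1133 to 1190.3 (median 1151) in tumor 2, without overlap, and its level in tumor 2 exceeded that of Adgre1. Neutrophil markers had 9 of 16 on, summing to 308 to 335 and 820 to 909. S100a9 ranged from 70.6 to 85.9 (median 78.1) in tumor 1 and from 308 to 346 (median 337) in tumor 2, while Ly6g, Elane, Mpo, Stfa1 and Stfa2 were not above background. Fibroblast markers had 9 of 16 on, led by the collagen gene Col3a1 at 229 ± 6.89 and 114 ± 7.80, and summed to 521 to 554 and 307 to 340. T and NK cell markers had 13 of 20 on but none above 25.7 as the mean of the tumors, and Cd3d, Cd247, Foxp3, Ncr1 and Klrb1c were not above background. B and plasma cell markers had 6 of 14 on, with Igkc at 30.1 ± 1.94 and 312 ± 14.97, and Ms4a1, Pax5, Blk and Ighd were not above background. Endothelial markers had 3 of 12 on and erythroid and platelet markers 1 of 13, Ppbp. Dendritic cell markers had 12 of 18 on, summing to 4244 to 4489 and 3140 to 3323, led by Cd83 and Bst2, which macrophages also express, with Zbtb46, Itgae, Siglech and Ccr9 not above background. The mast cell, basophil and eosinophil list had 3 of 14 on, led by the histidine decarboxylase gene Hdc at 25.4 ± 0.825 and 102 ± 4.19.

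The baseline was not the same in the 2 tumors. By edgeR's quasi-likelihood test on all 36052 genes with enough counts, 19638 genes (54.5%) were higher and 10864 (30.1%) lower in tumor 2, at an adjusted p under 0.05, and 84.6% were called in all. In that fit the median log2 change was 0.86 over all genes tested and -0.78 over those above background. The same test on the 13760 genes above background alone put their median at 0.04 and called 4463 (32.4%) higher and 3909 (28.4%) lower. Log2 changes below, tumor 2 minus tumor 1, come from this second fit. Each gene named in the next paragraphs on rises and falls kept its sign in the first. Because the first fit placed genes above background lower in tumor 2, only a rise could have turned. The kept sign of a fall is therefore no check of it. The p-values measure the spread between libraries and not between mice.

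Epithelial markers, neutrophil markers and Nos2 were higher in tumor 2. The 18 epithelial and tumor cell markers tested were all called higher, with a median log2 change of 1.95 against 0.04 over all genes in the fit, and 17 of 18 in the fit on all genes. Car1 changed by 3.08 (adjusted p = 1.85e-15). The largest rises among genes above background were Ces2a, a carboxylesterase gene of gut, at 3.96 (adjusted p = 3.12e-10), and Cyp2c55, a cytochrome gene of colon, at 3.95 (adjusted p = 3.99e-15). Ces2a stood at 1.11 ± 0.291 in tumor 1, near the minimum level of 1, and at 18.5 ± 2.04 in tumor 2. Cyp2c55 stood at 17.1 ± 1.11 and 280 ± 8.19. All 9 neutrophil markers above background were called higher, against 7 higher and 1 lower in the fit on all genes, and S100a9 changed by 2.01 (adjusted p = 3.6e-12). Nos2 changed by 2.47 (adjusted p = 3.4e-14). Jchain, Gm21411, Gm21149, Speer4cos, Tmigd1, Gm10354 and Cldn4 made up the other largest rises. Their levels in tumor 1 were also near the minimum of 1, from 1.03 ± 0.176 for Gm21149 to 2.22 ± 0.513 for Cldn4. With background higher in tumor 2, the sizes of these rises and that of Ces2a are uncertain.

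Lysosomal hydrolases, ribosomal protein genes, cell cycle genes, fibroblast markers, Il10 and Mrc1 were among the genes lower in tumor 2. Of 30 lysosomal hydrolases 25 were called lower and 0 higher, with a median log2 change of -0.35, against 0.04 over all genes in the fit. All 30 were called lower in the fit on all genes, where the median over genes above background was -0.78. In that fit all 22 actin cytoskeleton genes and all 16 sort and macrophage markers were called lower too, so its count is not particular to lysosomal genes. Psap changed by -1.02 (adjusted p = 1.84e-13) and Apoe by -0.90 (adjusted p = 4.18e-12). All 40 ribosomal protein genes were called lower and 0 higher in both fits, with a median log2 change of -0.33 in the second. The levels of 32 of these 40 are uncertain for shared sequence. The fall was thus not particular to lysosomal genes. Of 16 cathepsin and cystatin genes 11 were called lower and 2 higher. Of 20 cell cycle genes 19 were called lower and of 9 fibroblast markers 9. Of 14 Toll-like receptor genes 11 were called lower and 1 higher, and of 20 class I genes 17 lower and 1 higher. Il10 changed by -1.72 (adjusted p = 1.36e-11), Mrc1 by -1.35 (adjusted p = 2.11e-13) and C1qa by -0.66 (adjusted p = 7.1e-13). The largest falls were Max, which encodes the partner of MYC, at -2.12 (adjusted p = 2.49e-12), Fcrls at -1.88 (adjusted p = 2.84e-13), Gm17024, Nr4a3 at -1.76 (adjusted p = 1.49e-11), Vcam1 at -1.60 (adjusted p = 6.32e-13), Spon1 and Arl5c. Gm45717 at -1.73 (adjusted p = 0.0214) and Kctd12 at -1.51 (adjusted p = 4.05e-05) also ranked there but varied widely, with levels of 162 ± 184 and 51.6 ± 23.03 for Gm45717 and 246 ± 69.9 and 91.2 ± 22.5 for Kctd12. Beside these falls the summed level of epithelial markers was 2194 to 2249 in tumor 2 against 404 to 433 in tumor 1, and the part of other cells in them was not tested.

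Direction depended on the scaling for several groups. Of 10 MHC class II genes 8 were called higher and 1 lower in tumor 2 in the fit on genes above background, but 0 higher and 8 lower in the fit on all genes. Of 25 glycolytic genes the counts were 19 higher and 2 lower against 2 higher and 22 lower, and of 13 mitochondrially encoded genes 11 higher and 0 lower against 0 higher and 11 lower. No direction is given for these, nor for Cd74, Cd274 and Arg1, which changed by 0.15 (adjusted p = 7.68e-08), 0.41 (adjusted p = 4.41e-08) and 0.08 (adjusted p = 0.0044) among genes above background but fell among all genes, as given above.

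**Figure D5:**
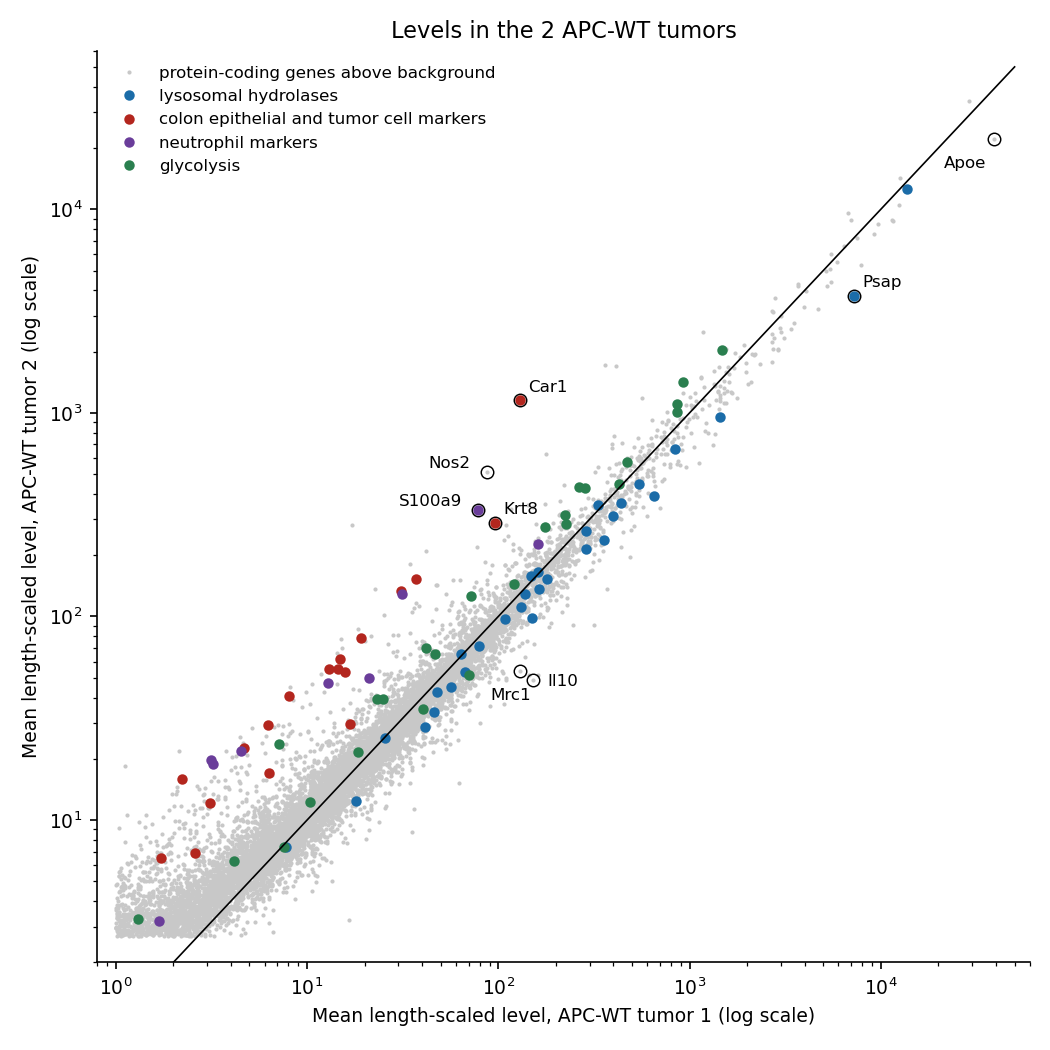
Mean length-scaled level in APC-WT tumor 1 (x axis) and APC-WT tumor 2 (y axis), both on log scales, of protein-coding genes above background, with 4 lists coloured, 8 genes circled and the line of equal level. Car1, Nos2, S100a9 and Krt8 lie above the line, Psap, Apoe, Il10 and Mrc1 below it.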

How the data were processed

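RNA of sorted tumor macrophages was sequenced in 24 libraries, prepared with an ultra low input Nextera XT kit per the labels' protocols, and the 12 APC-WT libraries were analysed. The deposited table holds whole-number counts per gene, not normalized, and the submitters' processing notes name bcl2fastq 2.20.0, HISAT2, StringTie and the mouse build mm9, with the settings, annotation and strand not given in the sources used here. Without strand, reads of overlapping genes cannot be told apart. Total counts ran from 28018638 to 93568353 per library. Symbols, exon lengths and coordinates came by gene ID from GENCODE M21 on GRCm38, for 55227 of 55487 IDs, and no coordinate was converted from mm9.

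Counts were divided by union exon length and scaled to the same total in every library, leaving 11 satellite-like loci (at least 0.4 of their 15-base stretches found in Gm10800) out of the total. The tumors were compared with edgeR 4.0.16 (quasi-likelihood test, filterByExpr, TMM, Benjamini-Hochberg adjustment at 0.05). On simulated counts for 34159 genes of this comparison, with 200 changed, 88% of log2 changes of 1 and 97% of those of 2 were recovered with 4 false calls. Apart from those 200 genes both simulated tumors had the same means and no difference in background. This simulation therefore cannot tell how the fit performs under the background difference and wide changes of the real tumors. A simulation of the background call over 21963 genes called 0% of genes with a true level of 0, 86.5% of those from 1 to 3 and 100% of higher ones. Among the real receptor genes the highest reached 1.79 in tumor 1 and 3.52 in tumor 2, above the level needed in each. The simulated 0% is therefore not the rate of false calls in the real data.

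Genes named are the 30 highest coding genes, the 20 highest by CPM, up to 5 members above and 5 not above background per list, a set of 21 marker, cytokine and enzyme genes, and the 10 largest changes each way; some genes under this rule are not reported here. The members and the 52 lists, with 1033 of 1034 genes matched, were chosen with earlier results of these data known. Alternatives were other background thresholds, lengths, scalings, filters, DESeq2 1.42.0, a replicate block and leaving out each library. The 12 APC-KO libraries entered only as a reference for background.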

Additional observations from a re-analysis of the deposited data

Results flagged for a closer look

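In groups of 6 libraries a value was singled out where its gap to the nearest other library divided by the group's range exceeded Dixon's critical value, which chance does in about 1 in 20 groups. Among all genes above background this held for 7.38% in tumor 1, 469 of 1016 of them through replicate 1, and for 5.24% in tumor 2.

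Lyz1 stood at 61.1 in tumor 1 replicate 5, against 101 to 114 in the 5 others. Il12b stood at 116 in tumor 1 replicate 3, against 107 to 110.3. Psap stood at 7005 in tumor 1 replicate 1, against 7184 to 7290.

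The share of counts in satellite-like loci was 6.501% in tumor 2 replicate 4, against 7.07% to 7.24% in the others. The summed level of epithelial and tumor cell markers was 404 in tumor 1 replicate 1, against 422 to 433. The summed level of T and NK cell markers was 163 in tumor 2 replicate 5, against 139.6 to 148.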

How the results depend on the processing

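Counts of genes above background stayed within 1.5 times of 13760 under every threshold, length and scaling tried, from 9669 with a minimum level of 5 to 16862 by the mean of both tumors, and at 13508 without genes under 200 exonic bases, an alternative chosen after seeing the data. Leaving out each library gave 13659 to 13795, and 10973 to 11036 coding genes. The tumor comparison depended on scaling. Without TMM, 26415 genes were higher and 3701 lower in tumor 2, and among genes above background alone 4463 were higher and 3909 lower. DESeq2 gave 21059 and 12359, and no filter on low counts 19331 and 12327. Leaving out each library gave 19531 to 19810 higher and 10828 to 11184 lower. The replicate block gave 19029 higher and 10853 lower. Same-numbered libraries correlated from -0.309 to 0.308 in their deviations, and replicates 2 and 5 of tumor 1 correlated most with their own number in tumor 2. With signs both ways, these correlations do not settle whether the numbers pair the samples. The share of the top 100 genes was 44.02% and 39.3% on the length-scaled level, 31.8% and 33.6% with satellite-like loci kept, and 31.2% to 31.4% and 29.1% to 29.3% when each library was left out. The depth and background of tumor 2 limit calls below a level of 2.70.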
